A study of Homo sapiens with 14 samples.

Results

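The BTG and TOB genes are a small family of antiproliferative genes, and the 5 members measured here were BTG1, BTG2, BTG3, TOB1 and TOB2. They were taken by gene symbol, or by NCBI gene number where symbols were missing, from count tables that list up to 28395 genes. The members were chosen by their counts in these same comparisons, with the fold changes against DMSO known, so those values, and any count of members past a threshold, are a description and support nothing about the family. BTG4, the relative best known from the egg and early embryo, had 0 to 2 counts per library and was left out of the family values.

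Messenger RNA was sequenced from CWR22Rv1 cells, an established human prostate cancer line, after 72 h with a glycosylation inhibitor or with DMSO, the solvent control. There were 3 libraries with DMSO alone, 3 with 30 μM Fucotrim I, 2 with 60 μM Fucotrim II, 3 with 100 μM SGN-2FF and 3 with 2 μM P-SiaFNEtoc. Fucotrim I and Fucotrim II are rhamnose-1-phosphate derivatives aimed at the synthesis of GDP-fucose from GDP-mannose, SGN-2FF is 2-fluorofucose, which blocks fucosyltransferases after uptake through the salvage route, and P-SiaFNEtoc is a fluorinated sialic acid that blocks sialyltransferases. The inhibitors were given at different doses, so their values stand side by side and were not compared with each other, and all 4 comparisons share the same DMSO libraries.

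BTG and TOB proteins share an N-terminal domain through which they bind the deadenylases CNOT7 and CNOT8 of the CCR4-NOT complex, the machine that shortens the poly(A) tails of messenger RNAs. TOB1 and TOB2 also bind the cytoplasmic poly(A)-binding protein and so bring the deadenylase to messenger RNAs, while BTG1 and BTG2 also bind the arginine methyltransferase PRMT1. When overexpressed, the proteins slow the entry of cells into S phase. BTG1 is known as a target of FOXO factors and BTG2 as a gene induced by DNA damage, and both are known for recurrent mutations in B cell lymphoma.

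BTG1 (NCBI gene 694) lies on the minus strand of chromosome 12 in hg38, at chr12:92140278-92145846, with 2 exons. BTG2 (NCBI gene 7832) lies on the plus strand at chr1:203305491-203309602 and also has 2 exons. The 250 bases upstream of the RefSeq starts of this pair of close relatives are shown, 5′ to 3′ on the strand of the gene (GRCh38.p14), because BTG1 was higher with every inhibitor while BTG2 was not. The gene positions above are those of GENCODE. The RefSeq start of BTG2 lies downstream of its GENCODE start. The end of the BTG2 window, from base 203305491 on, is therefore inside the gene position given. Capitals mark a FOXO motif, a TATA motif, a CCAAT motif or a CRE half-site, on either strand.
BTG1, minus strand, chr12:92145847-92146096: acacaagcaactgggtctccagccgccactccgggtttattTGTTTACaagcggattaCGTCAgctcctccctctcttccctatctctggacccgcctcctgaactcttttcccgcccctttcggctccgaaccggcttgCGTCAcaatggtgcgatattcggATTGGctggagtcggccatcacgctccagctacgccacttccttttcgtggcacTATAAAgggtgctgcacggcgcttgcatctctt
BTG2, plus strand, chr1:203305269-203305518: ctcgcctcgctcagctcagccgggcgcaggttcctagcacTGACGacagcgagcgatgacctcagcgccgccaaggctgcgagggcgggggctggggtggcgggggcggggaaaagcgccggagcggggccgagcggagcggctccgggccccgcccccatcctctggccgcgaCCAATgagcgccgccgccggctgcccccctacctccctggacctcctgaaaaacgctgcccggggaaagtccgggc

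The BTG1 window held the FOXO motif TGTTTAC, which reads GTAAACA on the other strand, once, from 209 to 203 bases before the start. None of the other 5 windows of the family held these letters, and 2.98% of 35116 RefSeq promoter windows of the same length did. The TATA motif TATAAA, which reads TTTATA on the other strand, was also found only in the BTG1 window, from 33 to 28 bases before the start, and in 10.7% of all windows. A match describes the letters only, and no match says only that these letters are not in this window.

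The CCAAT motif, which reads ATTGG on the other strand and was held by 32% of all windows, was found once in BTG1, once in BTG2 and once upstream of 1 of the 2 starts of TOB1. The CRE half-site TGACG, which reads CGTCA on the other strand and was held by 21.2% of all windows, was found 2 times in BTG1, once in BTG2 and once in that TOB1 window. The GC box GGGCGG, which reads CCGCCC on the other strand and was held by 42.6%, was found in the windows of all 5 genes, and it is not in capitals in the sequences. None of the 20 matches overlapped another. The BTG1 window was 56.4% G and C, close to the median of 58% over all windows, whereas BTG2 was at 74.8%, BTG3 at 78.4%, TOB2 at 68.4% and the TOB1 windows at 38.4% and 80.4%.

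**Figure D1:**
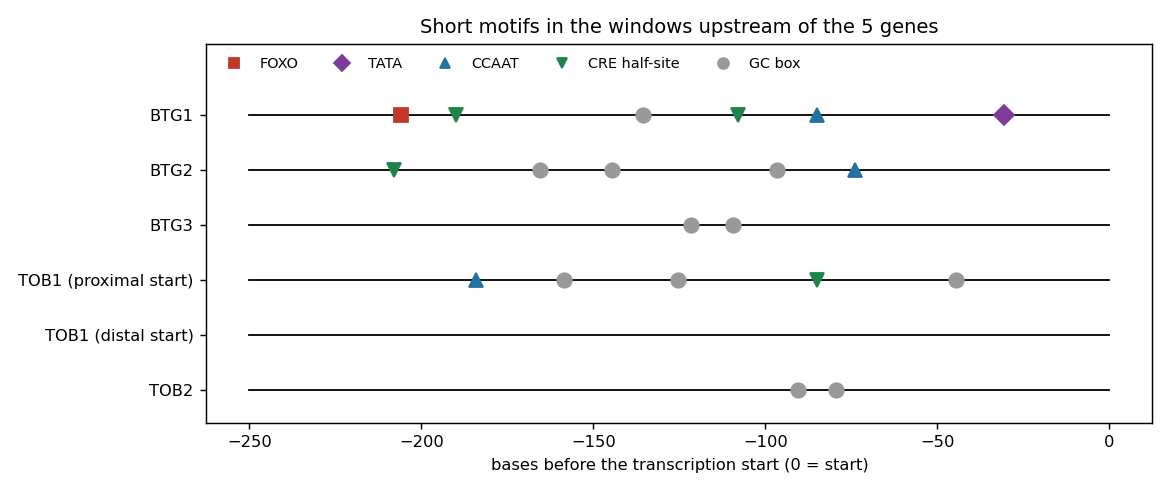
Short motifs in the 250 bases before the RefSeq starts of the 5 genes, plotted by distance from the start in bases; each symbol is a match on either strand and each line is a window. TOB1 has 2 starts, and BTG1 is the window with the FOXO and TATA motifs.

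Per length, TOB1 was the most abundant member. In DMSO its level was 110.9 RPKM (counts scaled to exon length and library total), against 44.15 RPKM for BTG1, 24.48 RPKM for TOB2, 11.46 RPKM for BTG3 and 8.72 RPKM for BTG2. This order held in 14 of 14 libraries with the length of all annotated exons. With the length of the canonical transcript it held in 12 of 14, because BTG3 then had 23.28 RPKM with Fucotrim I against 21.98 RPKM for TOB2, so these neighbours cannot be ordered firmly. The ranges of BTG3 and BTG2 over the DMSO libraries, 11.1 to 11.9 RPKM and 8.39 to 9.35 RPKM, did not overlap.

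BTG1 supplied 22.1% of the summed RPKM of the family in DMSO, 35.1% with Fucotrim I, 31.7% with Fucotrim II, 32.3% with SGN-2FF and 32.6% with P-SiaFNEtoc. TOB1 supplied 55.5% in DMSO and between 47.5% and 51.2% with the inhibitors. The share of BTG1 in single libraries ran from 21.6% to 23.1% in DMSO and from 30.3% to 35.5% with the inhibitors.

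Levels of 1 gene between libraries are given in CPM, counts scaled to the library total, on 1 TMM scale over all 14 libraries. BTG1 was at 223.12, 210.1 and 209.85 CPM in the DMSO libraries. It was at 451, 452 and 431 CPM with Fucotrim I and at 369 and 401 CPM with Fucotrim II. The values were 382, 356 and 394 CPM with SGN-2FF and 369, 357 and 354 CPM with P-SiaFNEtoc. Each of the 11 libraries with an inhibitor lay above each of the 3 with DMSO, and the lowest of them, a P-SiaFNEtoc library, stood at 354 CPM.

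Against a DMSO mean of 214 ± 7.59 CPM (SD, n = 3), the BTG1 means were 444 ± 11.95 CPM (SD, n = 3) with Fucotrim I and 385 ± 22.6 CPM (SD, n = 2) with Fucotrim II. They were 377 ± 19.7 CPM (SD, n = 3) with SGN-2FF and 360 ± 7.81 CPM (SD, n = 3) with P-SiaFNEtoc. The fitted log2 fold changes were 1.05 ± 0.05 (SE) with 30 μM Fucotrim I, 0.84 ± 0.06 with 60 μM Fucotrim II, 0.83 ± 0.04 with 100 μM SGN-2FF and 0.75 ± 0.04 with 2 μM P-SiaFNEtoc. In folds these were 2.08, 1.79, 1.77 and 1.68. The log2 fold change of BTG1 was above that of 98.3%, 91.7%, 98.7% and 98.9% of the genes tested in these comparisons. With Fucotrim II, where many genes moved far, BTG1 ranked 1207 from the top of 14617 genes.

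BTG2, a transcriptional coregulator known as an immediate-early and damage-responsive gene, was at 23.2, 25.8 and 23.1 CPM in DMSO. It was at 27.3, 26.9 and 23.7 CPM with Fucotrim I and at 19.1 and 23.9 CPM with Fucotrim II. With SGN-2FF it was at 26.2, 25.6 and 25.8 CPM and with P-SiaFNEtoc at 25.6, 28.3 and 27.6 CPM. The BTG2 values overlapped those of DMSO in all 4 comparisons, with log2 fold changes of 0.12 ± 0.08 (SE), -0.17 ± 0.11, 0.12 ± 0.07 and 0.17 ± 0.07 in the order Fucotrim I, Fucotrim II, SGN-2FF and P-SiaFNEtoc. The lowest BTG2 value of all was Fucotrim II replicate 1, and without Fucotrim II replicate 2 the log2 fold change was -0.34. Without DMSO replicate 2, the highest DMSO library, it was 0.23 with P-SiaFNEtoc.

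BTG3 (NCBI gene 10950), a member known to bind the E2F1 transcription factor, lies at chr21:17593653-17612945 on the minus strand with 5 exons. It was at 27.3, 26.2 and 25.6 CPM in DMSO and at 30.8, 35.8 and 31.8 CPM with Fucotrim I, where all 3 libraries lay above all DMSO libraries. It was at 29.953 and 27.035 CPM with Fucotrim II, at 26.5, 23.8 and 28.4 CPM with SGN-2FF and at 24.8, 25.9 and 26.1 CPM with P-SiaFNEtoc. These last 3 groups overlapped DMSO. The log2 fold change of BTG3 was 0.32 ± 0.08 (SE) with Fucotrim I, 0.10 ± 0.09 with Fucotrim II, -0.0054 ± 0.07 with SGN-2FF and -0.04 ± 0.07 with P-SiaFNEtoc. With SGN-2FF its sign turned without DMSO replicate 1 (0.02) and without SGN-2FF replicate 2 (0.07).

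TOB1 (NCBI gene 10140) lies at chr17:50862223-50867978 on the minus strand, with 2 exons. It was at 273.99, 282 and 283 CPM in DMSO, at 311, 315 and 311 CPM with Fucotrim I and at 335 and 311 CPM with Fucotrim II. It was at 297, 287 and 309 CPM with SGN-2FF and at 280.2, 282 and 282 CPM with P-SiaFNEtoc. TOB1 lay above every DMSO library in each library with SGN-2FF or either Fucotrim, and overlapped DMSO with P-SiaFNEtoc. The log2 fold changes were small, at 0.16 ± 0.05 (SE), 0.20 ± 0.06, 0.10 ± 0.04 and 0.01 ± 0.04 in the same order. The sign of TOB1 with P-SiaFNEtoc turned without DMSO replicate 1 (-0.0033).

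TOB2 (NCBI gene 10766) lies at chr22:41433494-41446801 on the minus strand, with 2 exons. It was at 105, 105 and 109 CPM in DMSO, at 96.0, 93.8 and 96.2 CPM with Fucotrim I and at 95.2 and 102 CPM with Fucotrim II. It was at 102, 106 and 102 CPM with SGN-2FF and at 92.2, 90.3 and 90.7 CPM with P-SiaFNEtoc. TOB2 was the only member whose fitted log2 fold change was below 0 in all 4 comparisons, at -0.15 ± 0.05 (SE), -0.11 ± 0.06, -0.03 ± 0.04 and -0.22 ± 0.04, and its groups lay below DMSO without overlap in all but SGN-2FF.

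**Figure D2:**
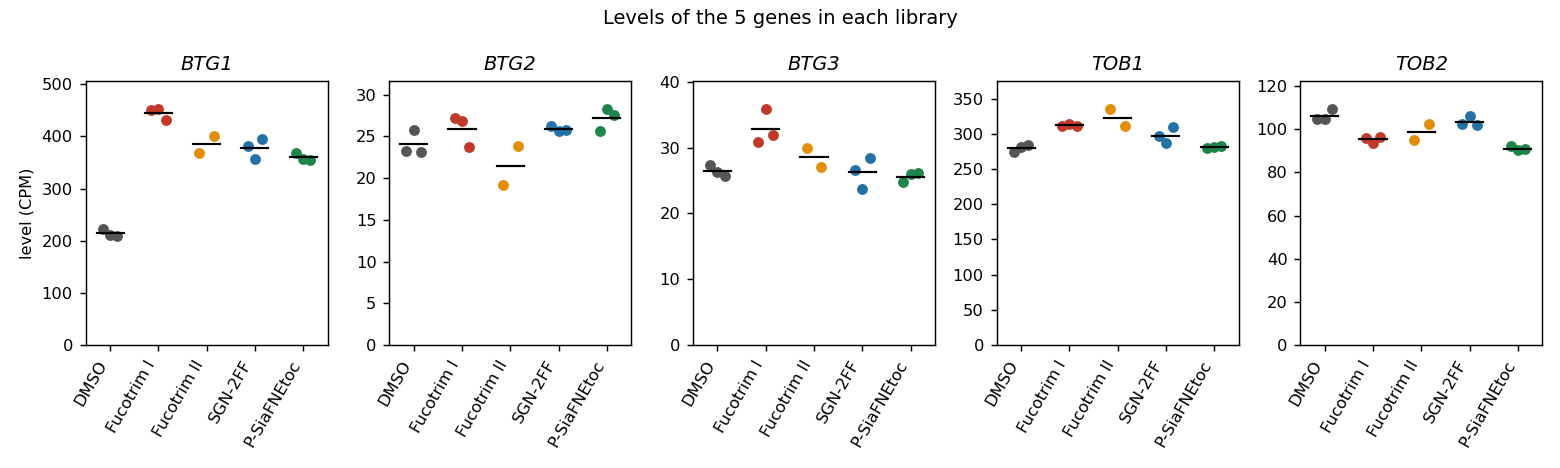
Level of each member in CPM in every library, by treatment, with a point per library, a line at the group mean and each vertical axis starting at 0. BTG1 lies between 354 and 452 CPM in all libraries with an inhibitor and between 209.85 and 223.12 CPM in DMSO.

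All 5 members were among the genes fitted in each comparison, and genes with an adjusted p under 0.05 (edgeR's quasi-likelihood test, Benjamini-Hochberg) are counted as called. With Fucotrim I, 3 members were called higher and 1 lower, where 43.8% of 14188 genes were called, 21.6% higher and 22.1% lower. With Fucotrim II, 2 were called higher and none lower, where 51.4% of 14617 genes were called, 25.6% higher and 25.7% lower. With SGN-2FF, BTG1 alone was called, where 20.6% of 14312 genes were, 11.5% higher and 9.08% lower. With P-SiaFNEtoc, BTG1 was called higher and TOB2 lower, where 16.3% of 14259 genes were called, 9.02% higher and 7.33% lower. Nothing about the family is read from these counts, since the same contrasts served to choose it. They also moved with single libraries: with Fucotrim II, TOB1 left the count without any 1 of DMSO replicates 1, 2 and 3 (0.18, 0.20 and 0.20), and BTG2 (-0.34) and TOB2 (-0.17) entered it without Fucotrim II replicate 2. TOB2 left that for Fucotrim I without DMSO replicate 1 (-0.16) or 3 (-0.14), and BTG2 entered that for P-SiaFNEtoc without DMSO replicate 2 (0.23). Groups without overlap were found for 4, 3, 2 and 2 members in the same order, where 52.6%, 67.6%, 36.4% and 33.7% of all genes tested did not overlap. The median log2 fold change of the members was 0.16, 0.10, 0.10 and 0.01, beside medians over all genes tested of 0.0012, 0.0075, 0.0036 and 4e-04.

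**Figure D3:**
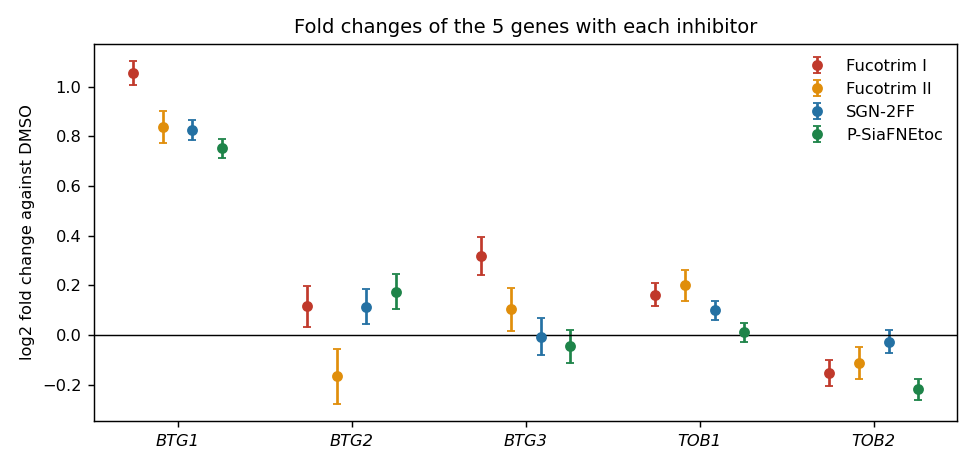
Fitted log2 fold change against DMSO of each member with each inhibitor, as points with bars of 1 standard error. BTG1 lies between 0.75 and 1.05, and the other members lie between -0.22 and 0.32.

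**Figure D4:**
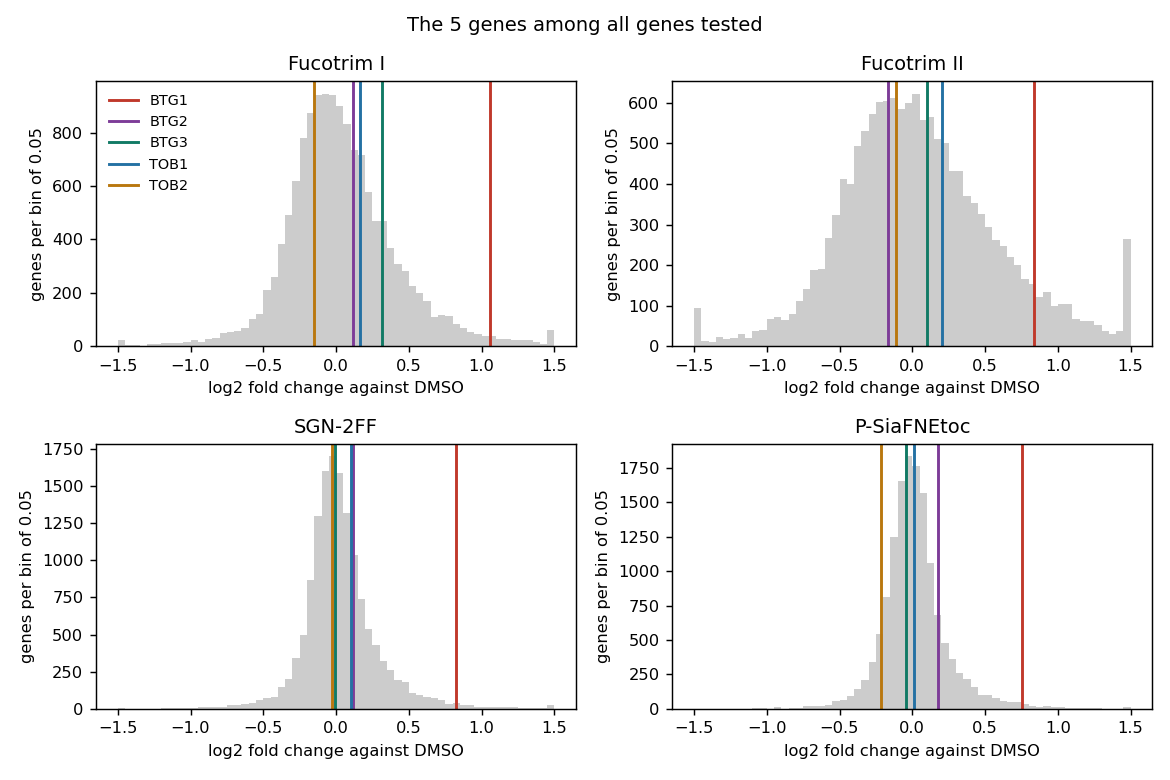
Number of genes per bin of log2 fold change against DMSO over all genes tested in each comparison, in grey, with a coloured line at each member; genes beyond 1.5 in either direction are stacked in the end bins. The BTG1 line stands in the right tail with Fucotrim I, SGN-2FF and P-SiaFNEtoc and less far out with Fucotrim II.

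Likeness to each member was measured as the root mean square difference of the 4 log2 fold changes. It covered the 11836 genes tested in all comparisons that averaged at least 50 counts over the 14 libraries. The genes most like BTG1 were KRT7, a simple epithelial keratin (0.0734), CPAMD8, a protein of the alpha-2-macroglobulin family (0.076), and KLK15, a kallikrein protease (0.11). KRT7 was at 25.4, 26.2 and 24.6 CPM in DMSO and had log2 fold changes of 1.04, 0.76, 0.91 and 0.84. The other 2 were low in DMSO, CPAMD8 at 2.365, 2.779 and 2.381 CPM and KLK15 at 4.4, 3.668 and 4.261 CPM. Just 2 of the 11836 genes came within 0.1 of BTG1, against 228 for BTG2, 228 for BTG3, 1145 for TOB1 and 592 for TOB2. The members with many near genes were those with small changes. Nearest to BTG2 were PPIF, BYSL and MRPS18C, to BTG3 VPS13D, FBXL22 and LHPP, to TOB1 ATP5MG, KMT2B and ATP6V1F, and to TOB2 BTN2A1, FRG1JP and USP45.

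The deadenylase that the family binds was examined next, with 14 subunits of CCR4-NOT and PAN2-PAN3, all tested. With Fucotrim I, 2 subunits rose and 8 fell (median log2 fold change -0.20). With Fucotrim II none rose and 7 fell (-0.19), with SGN-2FF 1 rose and 3 fell (-0.03), and with P-SiaFNEtoc none rose and 2 fell (-0.05). The shares of all genes that fell were 22.1%, 25.7%, 9.08% and 7.33%. The number for Fucotrim II became 11 in 1 fit of all 14 libraries, and those for SGN-2FF and P-SiaFNEtoc became 2 without SGN-2FF replicate 2 and 1 without P-SiaFNEtoc replicate 2.

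CNOT7, a catalytic subunit that BTG and TOB proteins bind directly, was at 182, 186 and 182 CPM in DMSO. It was at 138, 143 and 135 CPM with Fucotrim I and at 129 and 116 CPM with Fucotrim II. All 5 Fucotrim libraries lay below DMSO, and CNOT7 fell by 0.40 ± 0.05 on the log2 scale with Fucotrim I (adjusted p = 2.297e-06, edgeR) and by 0.59 ± 0.07 with Fucotrim II (adjusted p = 0.0001416, edgeR). With SGN-2FF CNOT7 fell by 0.16 ± 0.04 (adjusted p = 0.006598, edgeR), a call lost without SGN-2FF replicate 2 (-0.13). With P-SiaFNEtoc the log2 fold change was -0.11 ± 0.04 (adjusted p = 0.06593, edgeR), with a call without P-SiaFNEtoc replicate 3 (-0.14).

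CNOT8, the paralog of CNOT7 and its alternative in the complex, was at 64.5, 64.4 and 64.4 CPM in DMSO and between 51.9 and 59.1 CPM in the 11 libraries with an inhibitor. CNOT8 fell with each of them, by 0.25 ± 0.06, 0.20 ± 0.07, 0.16 ± 0.05 and 0.18 ± 0.05 on the log2 scale in the order Fucotrim I, Fucotrim II, SGN-2FF and P-SiaFNEtoc (adjusted p = 0.001965, 0.03076, 0.02608 and 0.0145, edgeR). The Fucotrim II call was lost without DMSO replicate 1, 2 or 3 (-0.20 in each case) and in DESeq2. The SGN-2FF call was lost without DMSO replicate 1 (-0.16), DMSO replicate 3 (-0.17), SGN-2FF replicate 1 (-0.13) or SGN-2FF replicate 2 (-0.18) and in DESeq2, and the P-SiaFNEtoc call without P-SiaFNEtoc replicate 2 (-0.14).

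CNOT6 and CNOT6L are the other pair of catalytic subunits. CNOT6 was at 102, 108 and 106 CPM in DMSO and fell by 0.34 ± 0.06 with Fucotrim I (adjusted p = 4.706e-05, edgeR) and by 0.52 ± 0.07 with Fucotrim II (adjusted p = 0.0003493, edgeR) on the log2 scale. Its log2 fold changes were -0.07 ± 0.05 with SGN-2FF and -0.10 ± 0.04 with P-SiaFNEtoc, neither called. CNOT6L was not called in any comparison, with log2 fold changes between -0.04 and -0.01 and overlapping groups throughout. CNOT1, the scaffold of the complex, was at 294, 299 and 301 CPM in DMSO and at 253, 252 and 259 CPM with SGN-2FF, where it showed the largest called fall of the list (-0.21 ± 0.04, adjusted p = 0.0001009, edgeR). CNOT1 also fell with Fucotrim I (-0.31 ± 0.05, adjusted p = 6.205e-05, edgeR) and Fucotrim II (-0.56 ± 0.06, adjusted p = 8.388e-05, edgeR). It was not called with P-SiaFNEtoc (-0.06 ± 0.04).

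CNOT3, a regulatory subunit, showed the largest called fall with both Fucotrims, at -0.68 ± 0.16 with Fucotrim I (adjusted p = 0.002432, edgeR) and -0.68 ± 0.22 with Fucotrim II (adjusted p = 0.0275, edgeR). It was low, at 9.40, 8.62 and 14.2 CPM in DMSO, where replicate 3 stood above the others. The Fucotrim II call was lost without DMSO replicate 3 (-0.44) and without either Fucotrim II library (-0.51 without replicate 1, -0.88 without replicate 2). CNOT4, a ubiquitin ligase of the complex, fell by 0.24 ± 0.06 on the log2 scale with P-SiaFNEtoc (adjusted p = 0.006138, edgeR). CNOT4 also fell with Fucotrim I (-0.46 ± 0.07, adjusted p = 2.666e-05, edgeR) and Fucotrim II (-0.54 ± 0.09, adjusted p = 0.0007021, edgeR). With SGN-2FF it was not called (-0.08 ± 0.07). Among rises, TNKS1BP1 had 0.13 ± 0.05 with Fucotrim I (adjusted p = 0.03309, edgeR), a call lost without any 1 of the DMSO libraries (0.14, 0.11 and 0.14) or without Fucotrim I replicate 3 (0.10), with no filter on low counts (0.12) and in 1 fit of all 14 libraries (0.13). PAN2, the catalytic subunit of the other deadenylase, had 0.22 ± 0.05 with SGN-2FF (adjusted p = 0.002014, edgeR), a call lost in 1 fit of all 14 libraries (0.21). With Fucotrim I PAN2 was called lower (-0.21 ± 0.07, adjusted p = 0.02025, edgeR), though its values overlapped those of DMSO.

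**Figure D5:**
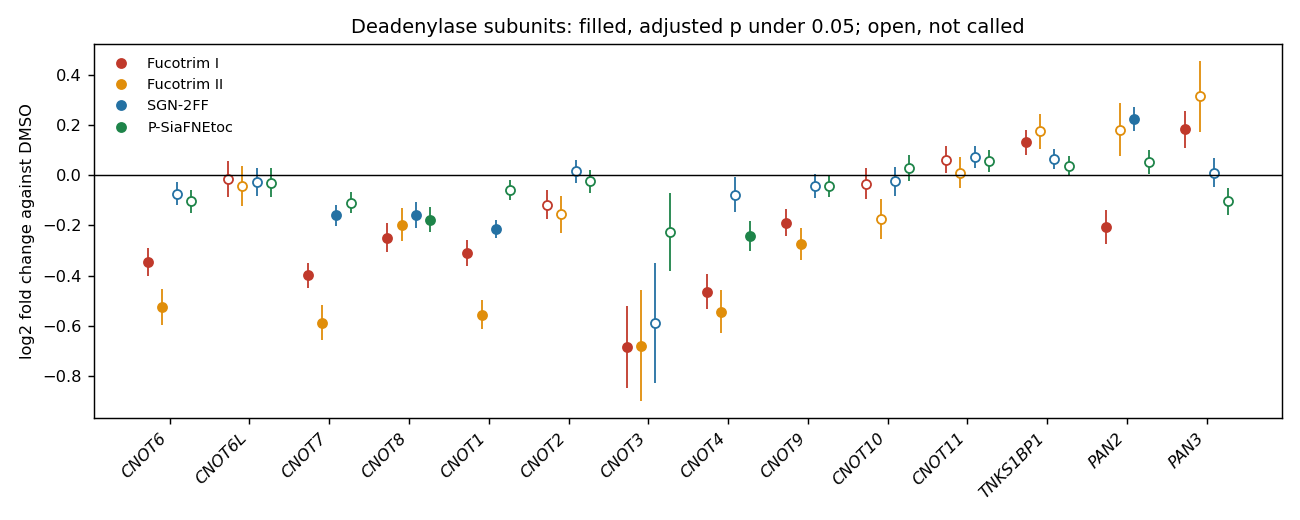
Log2 fold change against DMSO of the 14 deadenylase subunits with each inhibitor, with bars of 1 standard error; filled points had an adjusted p under 0.05 and open points did not. CNOT8 is filled and below 0 with all 4 inhibitors, while CNOT6L is open and near 0 throughout.

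Of 14 other protein partners of the family, 13 were tested and CPEB1 had 0 counts. They gave 0 rises and 3 falls with Fucotrim I, 2 and 3 with Fucotrim II, 1 and 2 with SGN-2FF and 2 and 1 with P-SiaFNEtoc. Of all genes tested, 43.8%, 51.4%, 20.6% and 16.3% were called in the same order. The shares called higher were 21.6%, 25.6%, 11.5% and 9.02%, and those called lower 22.1%, 25.7%, 9.08% and 7.33%. The SGN-2FF calls numbered 1 without DMSO replicate 2, DMSO replicate 3, SGN-2FF replicate 1 or SGN-2FF replicate 2. PABPC1, the main cytoplasmic poly(A)-binding protein, was at 861, 849 and 816 CPM in DMSO and was called only with SGN-2FF, where it was at 919, 877 and 897 CPM (0.10 ± 0.03, adjusted p = 0.02856, edgeR). That call was lost without DMSO replicate 3 (0.08), SGN-2FF replicate 1 (0.09) or SGN-2FF replicate 2 (0.12) and in 1 fit of all 14 libraries (0.09). PRMT1 was at 275, 269 and 267 CPM in DMSO and was called only with P-SiaFNEtoc, where it was at 293, 298 and 311 CPM (0.16 ± 0.04, adjusted p = 0.005871, edgeR), a call lost in 1 fit of all 14 libraries (0.15). PRMT1 was also called with SGN-2FF without SGN-2FF replicate 3 (0.14) and, downward, with Fucotrim II without Fucotrim II replicate 2 (-0.28).

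SMAD factors, which carry TGF-beta and BMP signals and include partners of TOB1, supplied most of the partners that fell. Here and for the other lists the largest rise or fall is the largest among called genes. SMAD5 had the largest fall with Fucotrim I (-0.32 ± 0.07, adjusted p = 0.001071, edgeR) and with Fucotrim II (-0.56 ± 0.09, adjusted p = 0.0009141, edgeR). SMAD1 had the largest with SGN-2FF (-0.22 ± 0.08, adjusted p = 0.04366, edgeR), a call lost without DMSO replicate 2 (-0.20), DMSO replicate 3 (-0.21), SGN-2FF replicate 1 (-0.18) or SGN-2FF replicate 3 (-0.18), in DESeq2 (-0.23), in limma-voom (-0.22) and in 1 fit of all 14 libraries (-0.23). SMAD4 had the one fall with P-SiaFNEtoc (-0.17 ± 0.05, adjusted p = 0.02275, edgeR), lost without DMSO replicate 2 (-0.12) or 3 (-0.17) and without P-SiaFNEtoc replicate 2 (-0.18) or 3 (-0.14), in DESeq2 (-0.17) and in 1 fit of all 14 libraries (-0.17). Of the rises, ERBB2, a receptor tyrosine kinase reported to bind TOB1, went from 154, 135 and 148 CPM to 206 and 213 CPM with Fucotrim II (0.52 ± 0.07, adjusted p = 0.000275, edgeR), and SMAD3 rose with P-SiaFNEtoc (0.33 ± 0.08, adjusted p = 0.002835, edgeR).

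A list of 15 FOXO factors and DNA damage response genes, which includes known regulators of BTG1, gave 6 rises and 1 fall with Fucotrim I, 5 and 2 with Fucotrim II, 2 and 2 with SGN-2FF and 4 and 1 with P-SiaFNEtoc. The medians were 0.06, 0.04, -0.05 and 0.02, and 43.8%, 51.4%, 20.6% and 16.3% of all genes tested were called. Of all genes, 21.6%, 25.6%, 11.5% and 9.02% were called higher and 22.1%, 25.7%, 9.08% and 7.33% lower. FOXO1 was not called with any inhibitor. FOXO3 and FOXO4 were called only with Fucotrim II, at 0.26 ± 0.09 (adjusted p = 0.03124, edgeR) and 0.31 ± 0.11 (adjusted p = 0.03531, edgeR). These 3 FOXO genes were picked out after their values were seen. The FOXO3 call was lost without DMSO replicate 1 (0.21), DMSO replicate 2 (0.25) or Fucotrim II replicate 1 (0.22) and in DESeq2 (0.26). The FOXO4 call was lost without any 1 of the DMSO libraries (0.32, 0.31 and 0.28) or Fucotrim II replicate 1 (0.26), in DESeq2 (0.32) and with no filter on low counts (0.30). The number of calls in the list was 4 rather than 7 with Fucotrim II without DMSO replicate 1 or DMSO replicate 2, and 2 or 3 rather than 5 with P-SiaFNEtoc without DMSO replicate 2 (3), DMSO replicate 3 (3), P-SiaFNEtoc replicate 2 (2) or P-SiaFNEtoc replicate 3 (2).

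CDKN1A, the p21 inhibitor of cyclin-dependent kinases, was at 138, 142 and 148 CPM in DMSO and at 205, 192 and 203 CPM with Fucotrim I (0.49 ± 0.05, adjusted p = 2.533e-07, edgeR). With Fucotrim II it was at 114 and 143 CPM (-0.16 ± 0.09), called without Fucotrim II replicate 2 (-0.34), and with SGN-2FF at 153, 126 and 125 CPM (-0.08 ± 0.06), called without SGN-2FF replicate 1 (-0.17). With P-SiaFNEtoc CDKN1A rose by 0.22 ± 0.04 (adjusted p = 0.0005713, edgeR), a call lost in 1 fit of all 14 libraries (0.22).

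MDM2, a ubiquitin ligase of the damage response, fell by 0.37 ± 0.07 on the log2 scale with Fucotrim II (adjusted p = 0.002732, edgeR) and was not called elsewhere. The largest rise in the list was PLK3 with Fucotrim I, from 9.68, 11.8 and 12.1 CPM to 20.2, 19.4 and 19.2 CPM (0.81 ± 0.10, adjusted p = 2.343e-06, edgeR). GADD45A, a stress-induced growth arrest gene, had the largest rise with Fucotrim II (0.77 ± 0.09, adjusted p = 0.000126, edgeR) and SGN-2FF (0.32 ± 0.08, adjusted p = 0.004114, edgeR). The largest falls were SESN2 with Fucotrim I (-0.36 ± 0.07, adjusted p = 0.0003825, edgeR) and SGN-2FF (-0.29 ± 0.07, adjusted p = 0.002246, edgeR) and RRM2B with Fucotrim II (-0.42 ± 0.09, adjusted p = 0.003029, edgeR). With P-SiaFNEtoc PLK3 rose by 0.31 ± 0.10 (adjusted p = 0.02653, edgeR) and FAS had -0.32 ± 0.10 (adjusted p = 0.02193, edgeR). The PLK3 call was lost without DMSO replicate 1 (0.21), P-SiaFNEtoc replicate 2 (0.32) or P-SiaFNEtoc replicate 3 (0.27), and the FAS call without DMSO replicate 2 (-0.29), DMSO replicate 3 (-0.32), P-SiaFNEtoc replicate 2 (-0.32) or P-SiaFNEtoc replicate 3 (-0.31), and both in DESeq2 (0.31 and -0.32).

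Immediate-early genes, the class to which BTG2 belongs, gave 3 rises and 4 falls with Fucotrim I, 7 and 4 with Fucotrim II, 4 and 4 with SGN-2FF and 2 and 2 with P-SiaFNEtoc, with 17 of 18 tested and IER3 at 0 counts. Over all genes tested, 43.8%, 51.4%, 20.6% and 16.3% were called in the same order. Split by direction, 21.6%, 25.6%, 11.5% and 9.02% were called higher and 22.1%, 25.7%, 9.08% and 7.33% lower. KLF4, a transcription factor of epithelial cells, was at 40.4, 38.4 and 43.9 CPM in DMSO and at 80.9 and 76.5 CPM with Fucotrim II. KLF4 had the largest rise with Fucotrim II (0.94 ± 0.08, adjusted p = 2.463e-05, edgeR), SGN-2FF (0.29 ± 0.06, adjusted p = 0.001374, edgeR) and P-SiaFNEtoc (0.36 ± 0.06, adjusted p = 5.58e-05, edgeR), and NR4A1, an orphan nuclear receptor, with Fucotrim I (0.97 ± 0.07, adjusted p = 5.337e-10, edgeR).

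The largest falls among the called genes of this list were ATF3 with Fucotrim I (-0.38 ± 0.07, adjusted p = 0.0001322, edgeR) and SGN-2FF (-0.25 ± 0.06, adjusted p = 0.003368, edgeR), and EGR1 with Fucotrim II (-0.71 ± 0.11, adjusted p = 0.0007584, edgeR) and P-SiaFNEtoc (-0.56 ± 0.11, adjusted p = 0.01016, edgeR). The EGR1 call with P-SiaFNEtoc was lost without P-SiaFNEtoc replicate 1 (-0.59) or 3 (-0.60). FOS, a subunit of AP-1 picked out after its values were seen, had a lower fitted value with P-SiaFNEtoc without passing the test, at a mean of 26.8 CPM against 62.7 CPM in DMSO (-1.22 ± 0.27, adjusted p = 0.0542, edgeR). With Fucotrim II FOS was called higher (0.45 ± 0.14, adjusted p = 0.02091, edgeR). Its values with Fucotrim I (0.38) and SGN-2FF (0.27) were above 0 and not called. The number of calls was 7 without DMSO replicate 1 and 6 without DMSO replicate 2 rather than 11 with Fucotrim II. With SGN-2FF it was 5 rather than 8 without DMSO replicate 1 or SGN-2FF replicate 2. With P-SiaFNEtoc it was 2 rather than 4 without DMSO replicate 1, DMSO replicate 3, P-SiaFNEtoc replicate 1 or P-SiaFNEtoc replicate 3.

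Genes of G1 and of entry into S phase, the step at which the family is known to act, gave 2 rises and 9 falls with Fucotrim I, 1 and 9 with Fucotrim II, 1 and 6 with SGN-2FF and 1 and 5 with P-SiaFNEtoc, with 17 of 19 tested. The medians were -0.14, -0.43, -0.10 and -0.10. In the same order 43.8%, 51.4%, 20.6% and 16.3% of all genes tested were called. By direction, 21.6%, 25.6%, 11.5% and 9.02% were called higher and 22.1%, 25.7%, 9.08% and 7.33% lower. The list holds restraints of S phase entry as well as promoters of it. Of the restraints, picked out after their values were seen, CDKN2C was called lower with each inhibitor (-0.16, -0.47, -0.28 and -0.20). RB1 was called lower with all but Fucotrim I (-0.47, -0.15 and -0.13), and RBL1 with both Fucotrims (-0.22 and -0.49). The RBL1 values with Fucotrim I overlapped those of DMSO. Near the threshold were CDKN2C and RBL1 with Fucotrim I (adjusted p = 0.03942 and 0.036, edgeR). So was RB1 with SGN-2FF and P-SiaFNEtoc (adjusted p = 0.04245 and 0.03523, edgeR). The calls of CDKN2C, RB1 and RBL1 were not followed gene by gene under the alternatives. RBL2 and CDKN2D were not called. CCND1, cyclin D1, fell by 0.23 ± 0.03 on the log2 scale with SGN-2FF (adjusted p = 1.262e-05, edgeR), from 2487, 2373 and 2488 CPM to 2125, 2054 and 2053 CPM. With Fucotrim I it had -0.14 ± 0.05 (adjusted p = 0.031, edgeR), lost without DMSO replicate 1 (-0.13), DMSO replicate 3 (-0.13), Fucotrim I replicate 2 (-0.12) or Fucotrim I replicate 3 (-0.10). With Fucotrim II it had -0.16 ± 0.07 and became a call without Fucotrim II replicate 1 (-0.13) or 2 (-0.19) and in 1 fit of all 14 libraries (-0.15).

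CDKN1B, the p27 inhibitor of cyclin-dependent kinases, was at 233, 229 and 228 CPM in DMSO. It was at 282, 279.6 and 272 CPM with Fucotrim I (0.28 ± 0.05, adjusted p = 6.49e-05, edgeR), at 288 and 293 CPM with Fucotrim II (0.33 ± 0.06, adjusted p = 0.001069, edgeR) and at 267, 271 and 275 CPM with P-SiaFNEtoc (0.24 ± 0.04, adjusted p = 4.179e-05, edgeR). With SGN-2FF it was 0.06 ± 0.04 and not called. CDK6, a kinase partner of D cyclins, had the largest fall with Fucotrim I (-0.59 ± 0.07), SGN-2FF (-0.45 ± 0.06) and P-SiaFNEtoc (-0.25 ± 0.06), with adjusted p = 6.252e-07, 3.126e-06 and 0.001869 (edgeR). With Fucotrim II the largest was CCNA2, cyclin A2, from 151, 155 and 153 CPM to 66.5 and 67.7 CPM (-1.19 ± 0.06, adjusted p = 3.667e-06, edgeR). CCNE1, cyclin E1, had the largest rise with Fucotrim I (0.39 ± 0.10, adjusted p = 0.004181, edgeR). CDK4 with SGN-2FF (0.10 ± 0.04, adjusted p = 0.04393, edgeR) was lost in most alternatives, including without any 1 of the DMSO libraries (0.11, 0.08 and 0.11) and without SGN-2FF replicate 1 (0.09) or 2 (0.09).

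Reads that could belong to transcripts overlapping the members were few where they could be seen. LINC01619 shares 10.4% of the exon bases of BTG1 on the same strand and had 1 to 19 counts per library, against at least 3349 for BTG1 in DMSO. TOB1-AS1, antisense to 11.1% of the exon bases of TOB1, had 10 to 37 counts. BTG3-AS1 overlaps 14.1% of BTG3 and BTG1-DT 5.64% of BTG1, both on the opposite strand, and neither was analysed here. The strand setting of the counting was not given in the sources used here, so reads of a gene and of its antisense partner may not have been separated. TOB2P1, a pseudogene of TOB2 chosen after its values were seen, had 8 to 42 counts and fell with Fucotrim I (-0.91 ± 0.33, adjusted p = 0.02858, edgeR) and with Fucotrim II (-1.15 ± 0.40, adjusted p = 0.03646, edgeR). The Fucotrim I call was lost without DMSO replicate 3 (-0.58), Fucotrim I replicate 2 (-0.97) or Fucotrim I replicate 3 (-0.74), the Fucotrim II call without DMSO replicate 1 (-1.20), DMSO replicate 3 (-0.83) or Fucotrim II replicate 1 (-0.92), and both in DESeq2 and limma-voom.

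Over the whole series, libraries held 12553094 to 19981314 counts on the 27819 genes shared by the tables, and all 8 markers of prostate luminal cells summed here, KLK3 and KLK2 among them, were above 1 CPM in every library. The summed level of these markers was 1450.0 to 1532 CPM in DMSO, 2243 to 2314 CPM with Fucotrim I, 2112 to 2392 CPM with Fucotrim II, 1924 to 2024 CPM with SGN-2FF and 1785 to 1876 CPM with P-SiaFNEtoc, so it was higher in every library with an inhibitor, as BTG1 was. KRT8 and KRT18, at means of 477 and 402 CPM in DMSO, supplied most of this sum. EPCAM was not called with either Fucotrim (-0.07 and 0.11) or P-SiaFNEtoc (0.08), nor FOLH1 with P-SiaFNEtoc (0.03). Among called markers the largest rise was TMPRSS2 with Fucotrim I (1.38 ± 0.06, adjusted p = 1.51e-12, edgeR) and Fucotrim II (1.41 ± 0.07, adjusted p = 3.307e-06, edgeR), KLK3 with SGN-2FF (1.32 ± 0.06, adjusted p = 9.104e-15, edgeR) and KLK2 with P-SiaFNEtoc (0.76 ± 0.05, adjusted p = 2.084e-12, edgeR). Of 10 markers of other cell types, 3 were above 1 CPM in every library, and the summed level was 118 to 130 CPM in DMSO, 133 to 152 CPM with Fucotrim I, 163 to 182 CPM with Fucotrim II, 113 to 127 CPM with SGN-2FF and 125 to 131 CPM with P-SiaFNEtoc, with PTPRC, CD3E, PECAM1 and CHGA at 0 to 3 counts. Most of this sum came from SYP, at a mean of 105 CPM in DMSO and 143 CPM with Fucotrim II. SYP was called higher with Fucotrim I (0.15 ± 0.06, adjusted p = 0.04488, edgeR) and Fucotrim II (0.44 ± 0.09, adjusted p = 0.002392, edgeR), and not with SGN-2FF or P-SiaFNEtoc. Its Fucotrim I values overlapped those of DMSO. ACTA2, low at a mean of 2.25 CPM in DMSO, was called higher with Fucotrim I alone (0.76 ± 0.24, adjusted p = 0.0148, edgeR), also with overlap. COL1A1, a collagen of mesenchymal cells, had the largest called rise of these markers with Fucotrim II, from a mean of 17.3 CPM to 26.2 CPM (0.59 ± 0.11, adjusted p = 0.001852, edgeR). The part of the marker levels in the BTG1 values was not tested. In bulk RNA, fewer cells of a kind and less RNA per cell cannot be told apart.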

How the data were processed

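RNA of CWR22Rv1 cells was measured by sequencing in 14 libraries, which the labels call biological repeats. The authors prepared strand-specific mRNA libraries and sequenced single reads, removed adapters (Cutadapt), aligned the reads to hg38 (HISAT2) and assigned them to genes (featureCounts), all in Galaxy. The authors deposited these counts as raw whole numbers in a separate table for each inhibitor. Every table repeats the DMSO libraries, whose counts were checked to be identical over the 27819 shared genes. Annotation release, strand setting and handling of multi-mapping reads were not given in the sources used here. In the SGN-2FF table, which has no symbols, genes were matched by NCBI gene number, and 549 of 28395 stayed without a symbol. Doses and times were taken from the paper's methods. The authors analysed these counts with limma-voom.

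Each inhibitor was fitted with the DMSO libraries alone, by edgeR 4.0.16 in R 4.3.3 (robust quasi-likelihood test, TMM, filterByExpr with a minimum count of 10 and a minimum total of 15). P-values were adjusted by Benjamini-Hochberg over all genes tested, with a call at 0.05. SE is the absolute log2 fold change over the square root of F. Libraries held 12553094 to 19981314 counts, and BTG2, the lowest member, had 283 to 533 counts. RPKM used exon lengths of GENCODE release 44, and promoter windows came from RefSeq (GRCh38.p14), matched by symbol for 5 of 5 members (6 windows). Alternatives were leaving out each library, a replicate block, DESeq2 size factors, DESeq2 1.42.0, limma-voom 3.58.1, no filter, at least 10 counts in every library, and 1 fit of all 14 libraries. Scripts were tested on simulated data.

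The members and gene lists were chosen with earlier results of these data known. Always named were CNOT6, CNOT6L, CNOT7, CNOT8, PABPC1, PRMT1, CDKN1A, MDM2, CCND1, CDKN1B and BTG4. From each other list the largest rise and fall per comparison were named, among called genes averaging 50 counts or more and groups that do not overlap, and for each member the 3 genes most like it. In 2 of the lists, 1 or 2 genes are not reported here and were left out of the counts.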

Additional observations from a re-analysis of the deposited data

How the results depend on the processing

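The calls of the members are a description, since these contrasts served to choose them. Each fold change was counted anew in every alternative, so the same fold change can count several times. Of these member values, 247 kept direction and call, 7 lost the call, 3 gained a call and 3 turned sign. All 7 losses came from TOB2 with Fucotrim I and TOB1 with Fucotrim II. TOB2 with Fucotrim I was -0.17 to -0.14 when single libraries were left out. With Fucotrim II, left-out libraries gave -0.34 to -0.0172 for BTG2, 0.15 to 0.25 for TOB1 and -0.17 to -0.0613 for TOB2, and TOB1 lost its call with a replicate block by title number (0.21) and by library-name number (0.19). BTG3 with SGN-2FF was -0.068 to 0.067, and turned at 0.0159 and 0.067. With P-SiaFNEtoc, BTG2 was 0.14 to 0.23 and TOB1 -0.0033 to 0.0211. Where a Fucotrim II library was left out, the lone sample was assumed to vary like DMSO.

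Genes called numbered 1942 with DESeq2, 1695 in the fit of all 14 libraries and 1642 to 3109 without single libraries for SGN-2FF (2946 in the report). For P-SiaFNEtoc they numbered 1482, 998 and 1516 to 2115 (2331 in the report). Among the fits without single libraries the lowest counts came without SGN-2FF replicate 2 and without P-SiaFNEtoc replicate 2. Calls in lists were recounted in the same alternatives, chosen after seeing the data. With Fucotrim II, deadenylase subunits numbered 4 with the title block, 11 in the fit of all 14 libraries and 5 to 9 without single libraries. FOXO and damage response genes numbered 4 with the title block, 4 with DESeq2 and 4 to 8, and immediate-early genes 6 to 10. With SGN-2FF, deadenylase subunits numbered 2 to 5, partners 1 in the fit of all 14 libraries and 1 to 4, and immediate-early genes 5 in that fit and 5 to 7. With P-SiaFNEtoc, deadenylase subunits numbered 1 to 3, partners 1 in that fit, FOXO and damage response genes 2 with DESeq2, 3 in that fit and 2 to 5, and immediate-early genes 7 with the title block and 2 to 3.

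Fold changes of other named genes were also counted anew in every alternative, so the same fold change can count several times. Of these values, 1153 kept direction and call, 110 lost the call, 9 gained a call and 14 turned sign. Those that turned were not called in the report. Without single libraries, CNOT6L was -0.0481 to 0.0565 with Fucotrim I (0.0084 also above 0), -0.1307 to 0.0362 with Fucotrim II and -0.0812 to 0.019 with P-SiaFNEtoc. With Fucotrim I, PRMT1 was -0.0224 to 0.0233 without single libraries (0.0064 also above 0) and 4e-04 with DESeq2 size factors and with DESeq2. It was -0.283 to 0.0041 with Fucotrim II. MDM2 was -0.0572 to 0.0085 with SGN-2FF. PABPC1 with P-SiaFNEtoc was -0.0202 to 0.0185 without single libraries (-0.0169 also below 0), -7e-04 with no filter and -2e-04 in the fit of all 14 libraries. The cause of these differences was not tested.

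Correlations of deviations of same-numbered libraries were 0.247, 0.28 and 0.047 for Fucotrim I. For Fucotrim II they were -0.285 and -0.397 by title number and 0.397 and 0.169 by library-name number. They were 0.16, -0.059 and -0.166 for SGN-2FF and -0.114, 0.068 and -0.012 for P-SiaFNEtoc. With 2 Fucotrim II libraries, their deviations from the group mean are mirror images of each other. The values -0.397 and 0.397 are therefore the same correlation with its sign turned, not separate evidence. Apart from these 2 numberings of Fucotrim II, differently numbered libraries were not correlated for comparison. These values thus do not settle whether the replicate numbers pair the libraries. With the title block, 7288, 5300, 2868 and 2674 genes were called in the order Fucotrim I, Fucotrim II, SGN-2FF and P-SiaFNEtoc, and with the library-name block 7779 for Fucotrim II. Among the Fucotrim II calls named in the report, the title block ended those of CNOT8 (-0.20), CNOT3 (-0.44), FOXO3 (0.31), FOXO4 (0.29) and TOB2P1 (-0.81), and the library-name block ended those of CNOT8 (-0.20) and FOXO3 (0.22) and added one for CDKN1A (-0.19). The title block also ended the CDK4 call with SGN-2FF (0.10). BTG2 (283 to 533 counts per library) and BTG3 (350 to 530) had the widest standard errors of the family in each comparison.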
